A study of Mus musculus with 54 samples.

Results

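Genes of cholesterol synthesis, of its control by sterol regulatory element-binding proteins (SREBPs) and of the liver X receptors (LXRs) were followed across all groups of the study. The 33 genes were listed by name. A gene was counted as measured where the gene-level array table held a probe set annotated with its symbol alone, and where there were several the one of highest mean on the 27 arrays was taken. By this rule 29 of the 33 genes were measured, of 19938 genes in all: 16 enzymes of the pathway, 6 genes that control SREBPs, 4 genes of the LXR system and 3 other genes of sterol or acyl lipid handling. Nr1h2, Soat1 and Acsl3 were measured only in the exon-level table of the same arrays, and Acat2 is not analysed here.

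The cells were Ba/F3-gp130, a mouse pro-B cell line that carries the gp130 receptor chain and was kept in culture with 10 ng/ml Hyper-IL-6, interleukin-6 joined to the soluble form of its receptor. The parental line had no further construct. Cargo Internalization Receptor constructs, a different one per line, were carried by CIR-1, by CIR-2 and by CIR-3. Every line was washed 4 times with PBS, held for 3 h without serum, and measured either unstimulated or after 1 h with 50 µl/ml of an emulsion the labels call GFP-PFC, without spelling out the name. A further parental group received 100 ng/ml Hyper-IL-6 for 1 h. Each of the 9 groups had 3 arrays, numbered 1, 3 and 5 without stimulation and 2, 4 and 6 with it. The labels do not say whether a CIR line is 1 clone, nor whether each array had its own culture, so p-values measure the spread between arrays, which may be technical. No arm with added liquid alone is described, and the emulsion and its handling cannot be told apart. The study's design text names the effect of the constructs on the cells as its question.

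Cells build cholesterol from acetyl-CoA by way of mevalonate, isoprenoid diphosphates, squalene and lanosterol, and the last steps take place in the endoplasmic reticulum (ER). SREBP-1 and SREBP-2, encoded by Srebf1 and Srebf2, are transcription factors held in the ER by the escort SCAP and the anchors INSIG1 and INSIG2 while sterols are plentiful. When sterols fall, SCAP carries them to the Golgi, where they are cut and released to switch on nearly every gene of the pathway. LXRs work in the other direction: oxysterols activate them, and they switch on export pumps such as Abca1 and Abcg1 and the ubiquitin ligase Mylip, which marks lipoprotein receptors for degradation. Rnf145 is an ER membrane ubiquitin ligase that is itself induced by LXRs and has been reported to act on SCAP.

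The promoters of 5 genes are shown because the results turn on them or because they carry the pathway's own motif: Hmgcs1 as the early enzyme with a sterol regulatory element, Insig1 as a classical SREBP target, and Rnf145, Mylip and Soat1 as genes that differed between groups. Each is the 250 bases before the annotated start in RefSeq (GRCm38.p6), written 5′ to 3′ along the gene, and for Rnf145 the most upstream of 3 annotated starts was taken. Capitals mark matches, on either strand, to the sterol regulatory element TCACNCCAC, to the LXR repeat (AGGTCA, 4 bases of any kind, AGGTCA) or to the CCAAT box, whose reverse complement is ATTGG.
Hmgcs1, chr13:119690101-119690350, plus strand: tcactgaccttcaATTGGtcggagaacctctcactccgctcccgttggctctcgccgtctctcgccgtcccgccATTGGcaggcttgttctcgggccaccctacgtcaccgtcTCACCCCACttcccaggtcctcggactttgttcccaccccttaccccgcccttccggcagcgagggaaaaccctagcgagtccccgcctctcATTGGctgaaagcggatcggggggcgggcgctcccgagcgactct
Insig1, chr5:28071162-28071411, plus strand: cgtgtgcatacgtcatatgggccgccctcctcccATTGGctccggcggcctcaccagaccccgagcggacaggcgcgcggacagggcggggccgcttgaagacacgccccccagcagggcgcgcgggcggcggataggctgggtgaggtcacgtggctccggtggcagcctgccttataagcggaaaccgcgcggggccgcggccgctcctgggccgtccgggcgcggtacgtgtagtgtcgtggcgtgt
Rnf145, chr11:44518706-44518955, plus strand: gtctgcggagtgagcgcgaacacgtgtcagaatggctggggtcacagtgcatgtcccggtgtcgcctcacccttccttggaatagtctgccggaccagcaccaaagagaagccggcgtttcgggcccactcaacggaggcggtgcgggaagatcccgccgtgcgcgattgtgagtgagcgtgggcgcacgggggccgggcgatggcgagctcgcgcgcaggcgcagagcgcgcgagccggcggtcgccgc
Mylip, chr13:45389492-45389741, plus strand: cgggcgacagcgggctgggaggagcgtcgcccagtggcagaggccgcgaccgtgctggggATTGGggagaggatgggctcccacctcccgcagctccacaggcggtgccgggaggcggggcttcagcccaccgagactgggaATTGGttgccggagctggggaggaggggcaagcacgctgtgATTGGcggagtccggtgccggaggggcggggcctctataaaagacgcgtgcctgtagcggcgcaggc
Soat1, chr1:156474329-156474578, minus strand: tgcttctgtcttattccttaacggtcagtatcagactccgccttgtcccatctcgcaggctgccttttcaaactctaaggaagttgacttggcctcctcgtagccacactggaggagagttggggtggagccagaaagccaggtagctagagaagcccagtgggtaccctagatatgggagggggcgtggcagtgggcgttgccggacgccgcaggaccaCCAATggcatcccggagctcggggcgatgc

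Hmgcs1 held 1 sterol regulatory element, whose first base lies 137 bases before the start, and 3 CCAAT boxes in reverse orientation. Mylip also held 3 reversed CCAAT boxes and Insig1 held 1, Soat1 held 1 CCAAT box in forward orientation, and the Rnf145 window held no match to the 3 motifs. RefSeq windows were found for 28 of the 33 genes, 39 windows in all. The CCAAT box was present in 22 of them (56.4%) and in 33.8% of all 32851 promoter windows of the same length. The sterol regulatory element matched 1 window of these genes (2.56%) and 1.05% of all windows, and the LXR repeat matched none of these genes' windows and 0.0152% of all windows. These matches describe letters in a short window and show no binding.

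Values are log2 array signals, and a difference of 1 on this scale is taken as a 2-fold change of signal. Array medians ran from 7.52 to 7.65. The group means of all 29 genes lay above the lower quartiles of the arrays, 6.22 to 6.31. Of 11 pro-B cell markers measured, 5 did so in every group, with Cd79a at 9.76 and Cd79b at 10.09 (means of 27 arrays). Pax5, Vpreb1 and Igll1 were the others, at 7.24, 7.10 and 7.49, below the array medians, while Ebf1, Rag1, Rag2, Il7r, Dntt and Blnk did not pass. The same mark was met by 3 of 4 T cell, 4 of 6 macrophage and monocyte and 2 of 5 mast cell and basophil markers. It therefore does not tell these cell types apart. Markers of the erythroid and megakaryocyte lineage were present at high signal, Gata1 at 10.87 and Itga2b at 10.58. The arrays numbered 1 and 2 stood apart from the others of their groups for several of the genes described here, and their values are given with the last comparison.

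GFP-PFC for 1 h lowered Rnf145 and Mylip and moved no other measured gene of this system past the threshold. Averaged over the 4 lines, Rnf145 fell to a signal 1.41-fold lower and Mylip to one 1.21-fold lower. The other LXR genes were lower by 0.069 to 0.099 on the log2 scale without passing the test, and the 16 synthesis enzymes lay between -0.042 and 0.098. A gene was called where the adjusted p (limma, Benjamini-Hochberg over 19938 genes) was under 0.05. By that rule 2 of the 29 genes were called, both lower, against 0.221% of all genes (44 of 19938, of which 37 were higher and 7 lower). The median difference of the 29 genes was 0.005 and that of all genes was -0.011. With the replicate block, which takes out the level shared by arrays of the same round, and without the Hyper-IL-6 arrays, 3 of the 29 genes were called, Hsd17b7 (higher) in addition, against 1.31% of all genes. Of 5 mast cell and basophil markers 1, Ms4a2, was also called with GFP-PFC, higher by 0.57 (SE 0.11, adjusted p = 0.015), and the mean of the 5 ran from 6.22 to 6.43 on unstimulated and 6.38 to 6.54 on GFP-PFC arrays of the CIR lines, without overlap within a line. Parental arrays, at 6.84 to 7.43 and 7.16 to 7.51, overlapped. None of the other 29 cell type markers was called, and the part of these markers in the result was not tested. In bulk RNA, fewer cells of a type and less RNA per cell cannot be told apart.

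Rnf145 showed the largest response. On the parental arrays it read 11.40, 11.30 and 11.23 unstimulated and 10.88, 10.99 and 10.62 after GFP-PFC. The CIR-1 arrays read 10.89, 10.89 and 10.88 against 10.48, 10.61 and 10.19. Every GFP-PFC array thus lay below every unstimulated array of its own line, and the same held in the next lines. CIR-2 gave 11.09, 11.02 and 11.12 unstimulated and 10.63, 10.61 and 10.30 with the emulsion. CIR-3 gave 11.31, 11.38 and 11.26 and 10.85, 10.96 and 10.69. The mean difference over the 4 lines was -0.50 (SE 0.052, adjusted p = 3.8e-05), lower in 12 of 12 pairs of arrays with consecutive numbers. Of all genes, 0.266% were lower in all 12 pairs and 1.33% were higher in all 12.

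By line the difference of Rnf145 was -0.48 in the parental line, -0.46 for CIR-1, -0.57 for CIR-2 and -0.48 for CIR-3, each with an SE of 0.10. A moderated F test of the response among the 4 lines gave an adjusted p of 1 for Rnf145, and 0% of all genes passed it, with 188 genes and 0 of the 29 at an unadjusted p under 0.05. In each line alone no gene of the array passed (0% in each of the 4 comparisons), with 4, 2, 3 and 2 of the 29 genes at an unadjusted p under 0.05 for the parental line and then CIR-1 to CIR-3, of 781, 491, 263 and 427 genes in all. With the replicate block Rnf145 was called in CIR-2 (adjusted p = 0.0162, with 0.00502% of all genes called, which is Rnf145 alone) and likewise in CIR-3 (adjusted p = 0.0249, 0.0502% of all genes). The fall was smallest for the arrays numbered 3 and 4, -0.28 to -0.42, and largest for those numbered 5 and 6, -0.57 to -0.82. At exon level 12 of its 13 probe sets were lower, with a median difference of -0.53, and the remaining probe set, at a mean signal of 6.17, was higher by 0.31.

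Mylip, the ligase that removes lipoprotein receptors, was the second gene called. Its parental values were 9.17, 9.04 and 8.88 unstimulated and 8.82, 8.52 and 8.91 with GFP-PFC, and these overlapped. In CIR-1 they were 9.41, 9.19 and 9.15 against 8.98, 8.84 and 9.13. In CIR-2 they were 9.09, 9.18 and 9.12 against 8.82, 8.81 and 8.93, and in CIR-3 9.38, 9.28 and 9.11 against 9.05, 8.94 and 8.995. The 3 CIR lines showed no overlap. The mean difference was -0.27 (SE 0.049, adjusted p = 0.0111), with 11 of 12 pairs lower and with line values from -0.28 to -0.26. All 10 exon-level probe sets were lower. The call ended when array medians were made equal, where the difference was -0.25 and the adjusted p 0.102.

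**Figure D1:**
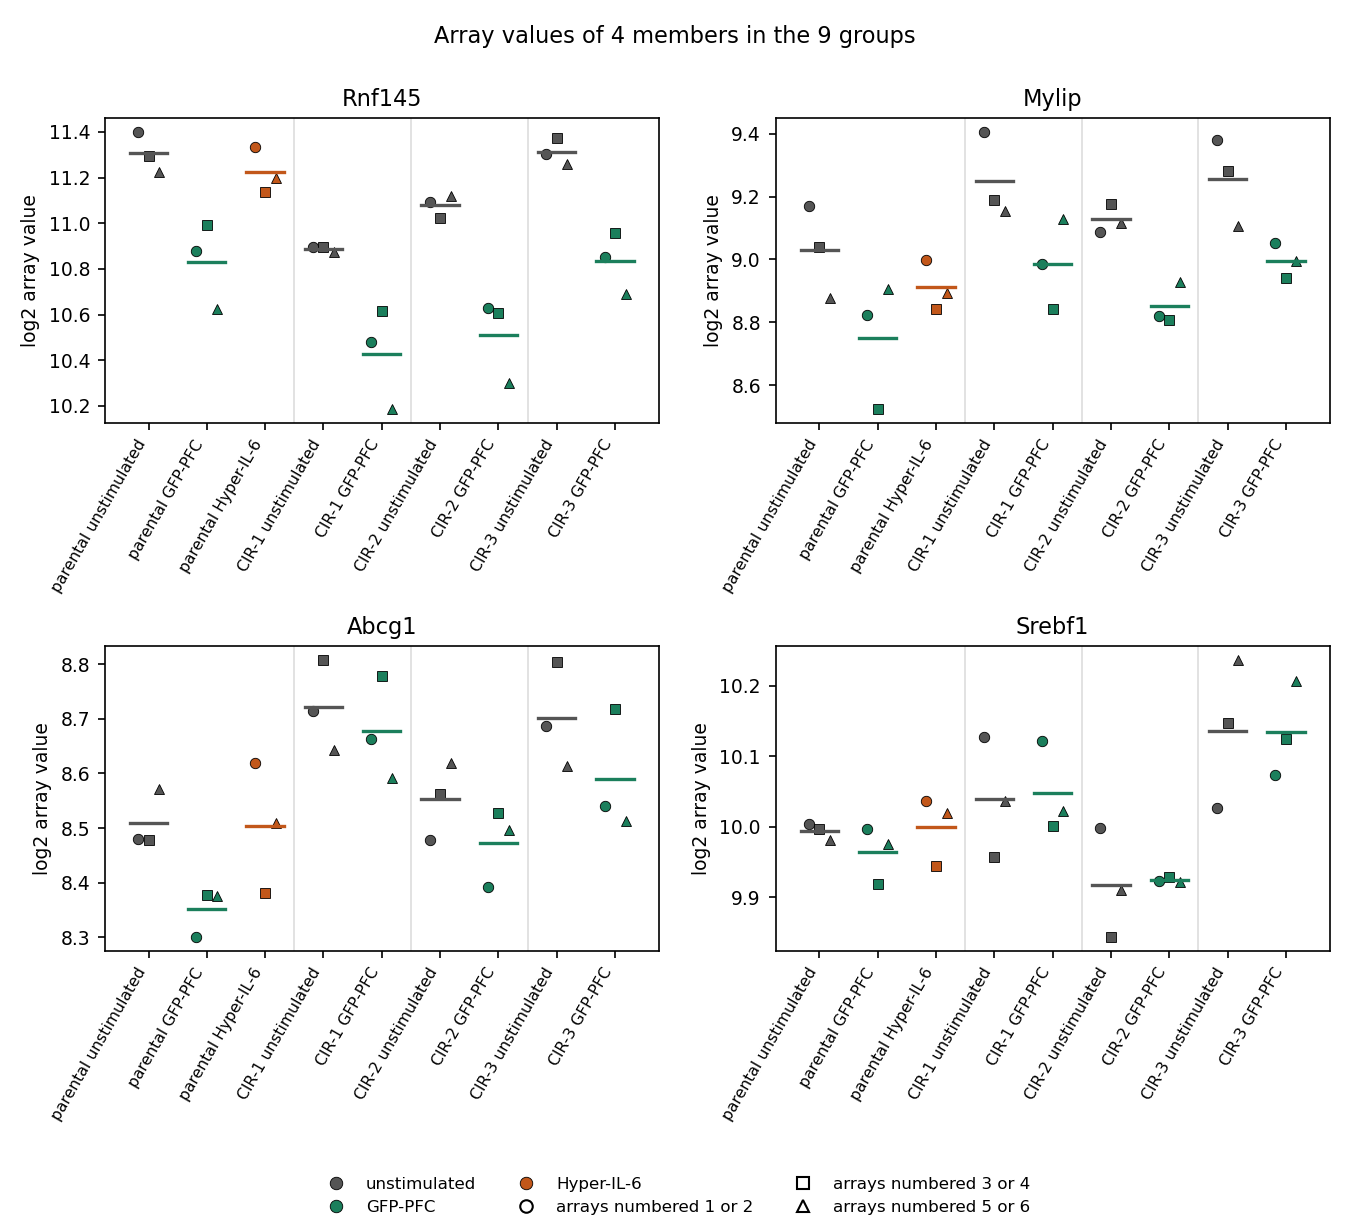
Array values (log2) of Rnf145, Mylip, Abcg1 and Srebf1 in the 9 groups, 3 arrays each, with the group mean as a bar, the stimulation as colour and the round of array numbers as symbol. Rnf145 is lower with GFP-PFC in every line (mean difference -0.50) and Abcg1 is highest in CIR-1 and CIR-3.

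The sterol exporters and the receptor itself were not called. Abcg1, a pump that passes cholesterol to lipoproteins, read 8.48, 8.48 and 8.57 in unstimulated and 8.30, 8.38 and 8.38 in GFP-PFC parental arrays, which did not overlap. It read 8.72, 8.81 and 8.64 against 8.66, 8.78 and 8.59 in CIR-1 and 8.48, 8.56 and 8.62 against 8.39, 8.53 and 8.50 in CIR-2. In CIR-3 the values were 8.69, 8.80 and 8.61 and 8.54, 8.72 and 8.51, so that the CIR lines overlapped. The mean difference was -0.099 (SE 0.037, adjusted p = 0.548), small but lower in 12 of 12 pairs. Nr1h3, which encodes LXR alpha, differed by -0.098 (SE 0.041, adjusted p = 0.658) and was lower in 10 pairs. Abca1, the pump that loads cholesterol onto lipid-poor apolipoprotein, differed by -0.069 (SE 0.11, adjusted p = 0.999) and was lower in 7 pairs. Nr1h2, which encodes LXR beta, differed by 0.019 at exon level (SE 0.079).

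Of the genes that hold SREBPs in check or encode them, none but Rnf145 was called. Insig1, the sterol-sensitive anchor, read 11.30, 11.49 and 11.47 unstimulated and 11.23, 11.71 and 11.74 with GFP-PFC in parental cells, and 11.24, 11.34 and 11.49 against 11.17, 11.39 and 11.69 in CIR-1. It read 11.33, 11.32 and 11.52 against 11.38, 11.55 and 11.54 in CIR-2 and 11.53, 11.51 and 11.71 against 11.60, 11.76 and 11.85 in CIR-3. The stimulated and unstimulated arrays overlapped in all 4 lines. The mean difference was 0.11 (SE 0.061, adjusted p = 0.885), higher in 10 of 12 pairs and in all 5 exon-level probe sets. Insig2 differed by 0.070 (SE 0.095, adjusted p = 0.999), Srebf2 by 0.027 (SE 0.034, adjusted p = 0.999), Scap by -0.036 (SE 0.054, adjusted p = 0.999) and Srebf1 by -0.004 (SE 0.031, adjusted p = 0.999).

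Among the enzymes, Hsd17b7, which reduces a sterol ketone late in the pathway, came nearest to the threshold. It read 10.55, 10.50 and 10.45 unstimulated and 10.61, 10.66 and 10.54 with GFP-PFC in parental cells, and 10.41, 10.41 and 10.41 against 10.46, 10.60 and 10.48 in CIR-1. It read 10.51, 10.54 and 10.53 against 10.60, 10.66 and 10.60 in CIR-2 and 10.50, 10.47 and 10.51 against 10.58, 10.58 and 10.59 in CIR-3. The difference was 0.098 (SE 0.025, adjusted p = 0.15), a 1.07-fold higher signal seen in 12 of 12 pairs and in all 11 exon-level probe sets. Of 34 alternatives 3 called it, namely array weights (adjusted p = 0.00692), the replicate block without the Hyper-IL-6 arrays (0.0276) and leaving out the arrays numbered 1 and 2 (0.0477), and the largest adjusted p among the 34 was 0.355. Cyp51, the lanosterol demethylase, was at 0.096 (SE 0.089, adjusted p = 0.986) and higher in 11 pairs.

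The early enzymes were not called either. Hmgcs1, which makes HMG-CoA, differed by 0.005 (SE 0.060, adjusted p = 0.999), and its parental values of 12.44, 12.22 and 12.16 unstimulated and 12.40, 12.23 and 12.14 with GFP-PFC overlapped. Sqle, the squalene epoxidase, differed by 0.018 (SE 0.054, adjusted p = 0.999), with parental values of 11.41, 11.18 and 11.23 against 11.41, 11.24 and 11.31. In all, 12 of the 16 enzymes were above 0 and 4 below, with a median of 0.013, while 40.2% of all genes were above 0. The last 3 genes, Stard4, a sterol carrier, Npc1l1, a sterol uptake transporter, and Lpin1, a phosphatidate phosphatase, lay between -0.033 and 0.032. Of companion genes chosen by function, 0 of 4 further synthesis genes, 0 of 10 SREBP processing genes, 0 of 14 fatty acid synthesis genes, 0 of 15 sterol transport and storage genes and 0 of 4 LXR partners were called for GFP-PFC.

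**Figure D2:**
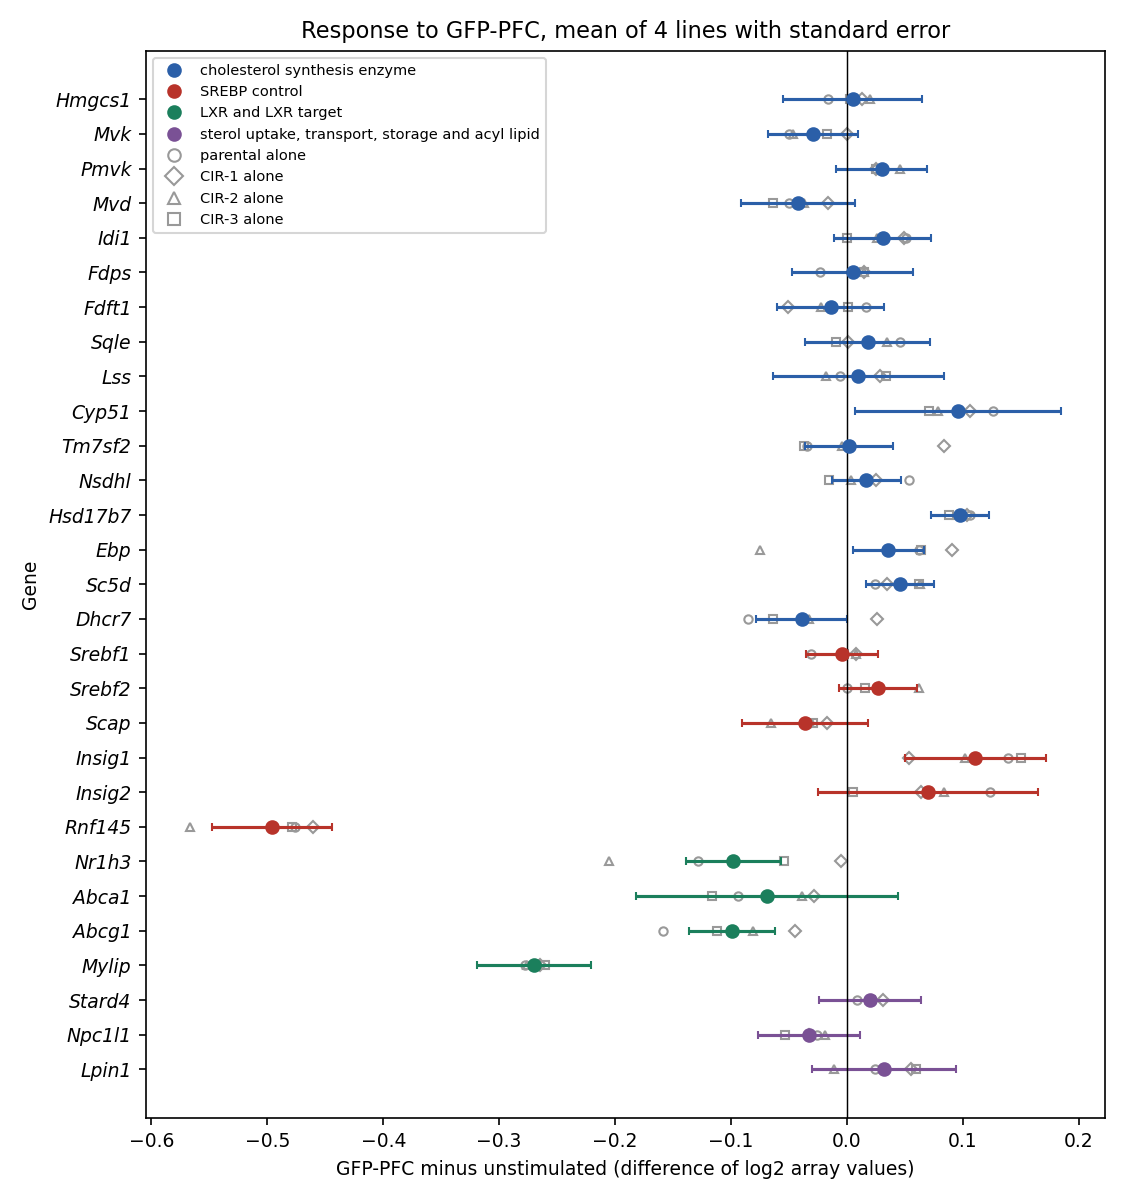
Difference between GFP-PFC and unstimulated cells for the 29 genes (log2), as the mean of 4 lines with its standard error (filled, coloured by role) and in each line alone (open grey). Rnf145 at -0.50 and Mylip at -0.27 stand to the left of all the others, and the 16 enzymes lie between -0.042 and 0.098.

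Hyper-IL-6 for 1 h in parental cells was not followed by a called change in any of the 29 genes, against 0.777% of all genes (155 of 19938), and 0 of the 29 had an unadjusted p under 0.05. Rnf145 read 11.34, 11.14 and 11.20, a difference of -0.084 (SE 0.10, adjusted p = 1) from unstimulated cells, and Mylip read 8.997, 8.84 and 8.89, a difference of -0.12 (SE 0.098, adjusted p = 0.968). The enzymes lay between -0.13 and 0.031, with 12 of 16 below 0, while 44% of all genes were above 0. Abca1 read 9.34, 9.68 and 9.85 with Hyper-IL-6 and 9.88, 9.09 and 9.25 without, where the array numbered 1 is the highest, and the difference was 0.21 (SE 0.23, adjusted p = 0.989). Without the arrays numbered 1 and 2 it was 0.59 (adjusted p = 0.0133), in a fit of the remaining arrays that called 18.4% of all genes. Of the companion genes only Gramd1a, which moves sterols from the plasma membrane to the ER, was called, higher by 0.41 (SE 0.093, adjusted p = 0.0305).

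Set against GFP-PFC in the same line, Hyper-IL-6 gave higher mean values for Abcg1, Mylip, Abca1 and Rnf145 without a call. Nr1h3 was about level, at 0.009. In limma 0 of 29 genes passed, 2 had an unadjusted p under 0.05, and 0.512% of all genes passed. Rnf145 differed by 0.39 (SE 0.10, adjusted p = 0.14), and all 3 Hyper-IL-6 arrays lay above all 3 GFP-PFC arrays. With the replicate block it was called (adjusted p = 0.0134), as 1 of 29 genes, where 1.26% of all genes were. The rounds are not borne out for the Hyper-IL-6 arrays, however: none of their 24 pairs with arrays of the same round correlated above 0.1 (-0.46 to 0.059). Abcg1 differed by 0.15 (SE 0.074, adjusted p = 0.925), Mylip by 0.16 (SE 0.098, adjusted p = 1) and Abca1 by 0.31 (SE 0.23, adjusted p = 1). Over 15 alternatives the Mylip value ran from 0.046, without the GFP-PFC array 4, to 0.24, without the GFP-PFC array 6, and that of Abca1 from 0.19, without the Hyper-IL-6 array 6, to 0.56, without the arrays numbered 1 and 2. Array weights called both (adjusted p = 0.048 and 0.0217), in a fit that called 1929 of all 19938 genes. That fit also called the enzymes Hsd17b7 (-0.18), Ebp (-0.19) and Sc5d (-0.14), all lower with Hyper-IL-6. This comparison and the former share the Hyper-IL-6 arrays. It also reuses the parental GFP-PFC arrays, so its values are not independent of the GFP-PFC response given above. Each line comparison that follows shares the parental unstimulated and GFP-PFC arrays.

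The CIR lines differed from the parental line mainly in Rnf145, Abcg1 and Soat1. Averaged over unstimulated and GFP-PFC cells, Rnf145 was 1.33-fold lower in CIR-1 and 1.21-fold lower in CIR-2, and Abcg1 was 1.21-fold higher in CIR-1 and 1.16-fold higher in CIR-3. Srebf1 was 1.11-fold higher in CIR-3. No synthesis enzyme was called in any line in the main fit. That fit used the gene-level values of all arrays as deposited, without the block or array weights. In CIR-1, 2 of 29 genes were called (1 higher, 1 lower; 4.92% of all genes), in CIR-2 1 (lower; 3.8% of all genes) and in CIR-3 2 (both higher; 4.2% of all genes). These counts are of the order of the background. Signals of 4 erythroid and megakaryocyte markers also differed between lines: all 4 were called higher in both CIR-1 and CIR-2, and 1 of them in CIR-3, and their mean ran from 9.70 to 9.85 on parental, 10.16 to 10.30 on CIR-1, 10.05 to 10.12 on CIR-2 and 9.90 to 10.03 on CIR-3 arrays. The mean of 5 mast cell and basophil markers ran from 6.84 to 7.51 on unstimulated and GFP-PFC parental arrays and from 6.22 to 6.54 on those of the CIR lines. Of these 5 only Fcer1a was called lower, by -4.16 in CIR-1 and in CIR-2 and -4.29 in CIR-3, while Ms4a2 was called higher in CIR-3 (0.59, SE 0.15, adjusted p = 0.0232) and Cpa3, Kit and Mcpt8 were not called in any line. The part of these cell type markers in the results on the lines was not tested.

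In CIR-1, Rnf145 differed from parental cells by -0.41 (SE 0.074, adjusted p = 0.000723). The difference was -0.42 in unstimulated and -0.41 in GFP-PFC cells (SE 0.10 each), and within each stimulation the arrays of both lines did not overlap. All 13 exon-level probe sets were lower. Abcg1 differed by 0.27 (SE 0.052, adjusted p = 0.0018). Its 6 CIR-1 arrays, from 8.59 to 8.81, all lay above the 6 unstimulated and GFP-PFC parental arrays, from 8.30 to 8.57. The parental Hyper-IL-6 arrays, outside this comparison, ran from 8.38 to 8.62 and overlapped the CIR-1 range. Of the 17 exon-level probe sets of Abcg1 15 were higher and 2 lower, with differences from -0.084 to 1.07 and a median of 0.25. Mylip was at 0.23 (SE 0.069, adjusted p = 0.0611). It was called in 8 of 22 alternatives. These were the replicate block with all arrays (adjusted p = 0.0248) or without Hyper-IL-6 (0.0292), exon-level values (0.0333), quantile normalization (0.0294) and array weights (0.00448). The others left out the parental array 1 (0.0271), the parental array 6 with GFP-PFC (0.031) or the CIR-1 array 4 (0.0355). Array weights called 1728 of all 19938 genes here. With the block 4 of 29 genes were called in CIR-1, the additional ones being Mylip and the sterol isomerase Ebp (-0.14), where 8.3% of all genes were. Without the Hyper-IL-6 arrays the blocked count was 6, with Mvd and Fdps added, where 10.6% of all genes were.

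In CIR-2, Rnf145 differed by -0.27 (SE 0.074, adjusted p = 0.035), and all 13 exon-level probe sets were lower. The unstimulated arrays did not overlap with the parental ones and those with GFP-PFC did. The call ended in a fit of the compared arrays alone (adjusted p = 0.0818), without the arrays numbered 1 and 2 (0.154) and with equal array medians (0.0887). It also ended without the parental array 1 (0.0782), 2 (0.0836), 3 (0.0597) or 4 (0.12) or without the CIR-2 array 1 (0.0599), 3 (0.0948), 5 (0.057) or 6 (0.129). Abcg1 was at 0.082 and Mylip at 0.10 in this line, neither called. Mylip passed in 1 of 22 alternatives, array weights (0.0238), where 1897 of all 19938 genes were called. A blocked fit that left out the Hyper-IL-6 arrays called 5 genes here, namely Mvd, Dhcr7, Scap, Rnf145 and Stard4, where 8.76% of all genes were.

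In CIR-3, the difference of Rnf145 from the parental line was 0.004 (SE 0.074, adjusted p = 0.984). Abcg1 was higher by 0.22 (SE 0.052, adjusted p = 0.0154). That call ended in a fit of the compared arrays alone (adjusted p = 0.0649) and without the CIR-3 array 3 (0.0592) or 4 (0.0595). Of the 17 exon-level probe sets of Abcg1, 12 were higher and 5 lower, with differences from -0.195 to 1.11. Srebf1, the gene of the SREBP that also drives fatty acid synthesis, read 10.03, 10.15 and 10.24 unstimulated and 10.07, 10.12 and 10.21 with GFP-PFC in CIR-3, and 10.00, 10.00 and 9.98 against 10.00, 9.92 and 9.98 in parental cells. On these arrays the lines did not overlap, but the highest parental Hyper-IL-6 array, at 10.04, lay above the lowest CIR-3 array. The Srebf1 difference between CIR-3 and parental cells was 0.16 (SE 0.044, adjusted p = 0.0413). It lost its call in the compared arrays alone (0.166), at exon level (0.0717) and after quantile normalization (0.234, difference 0.10), and without the parental array 2 (0.0533), 3 (0.0763), 4 (0.106), 5 (0.0865) or 6 (0.0715) or the CIR-3 array 3 (0.0857), 4 (0.071), 5 (0.111) or 6 (0.11).

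Other genes of the LXR and SREBP groups did not pass in CIR-3. Mylip was at 0.24 (SE 0.069, adjusted p = 0.0535), and it was called in 9 of 22 alternatives. These were the replicate block with all arrays (0.0203) or without Hyper-IL-6 (0.0229), exon-level values (0.0305), array weights (0.00141) and the filter on dim genes (0.0451). The others left out the arrays numbered 1 and 2 (0.0459), the parental array 1 (0.0184) or 6 (0.03) or the CIR-3 array 5 (0.0279). Abca1 read 9.94, 9.51 and 9.69 unstimulated and 9.80, 9.30 and 9.69 with GFP-PFC in CIR-3, and 9.88, 9.09 and 9.25 against 9.55, 9.10 and 9.29 in parental cells, a difference of 0.30 (SE 0.16, adjusted p = 0.37) on wide spreads. Abca1 was called with the block and without the Hyper-IL-6 arrays (0.00914), with array weights (0.0314) and without the arrays numbered 1 and 2 (0.0201), and not in the other 19 alternatives. In CIR-3 array weights called 4248 of all 19938 genes and leaving out the arrays numbered 1 and 2 called 4172, against 837 in the main fit. Nr1h3 was at -0.18 (SE 0.057, adjusted p = 0.0876), and passed with the block and without the Hyper-IL-6 arrays (0.0359), with array weights (0.0462) and without the parental array 3 (0.0461). Insig1 was at 0.17 (SE 0.086, adjusted p = 0.326), Srebf2 at 0.089 (SE 0.049, adjusted p = 0.375) and Insig2 at 0.062 (SE 0.13, adjusted p = 0.854). The Insig2 value ran from 0.001 without the unstimulated parental array 3 to 0.18 without the unstimulated parental array 1, and it was called without the arrays numbered 1 and 2 (0.17, adjusted p = 0.0407). In CIR-3 the block called 4 genes, namely Mvd, Srebf1, Abcg1 and Mylip, all higher, where 8.28% of all genes were. With the block and without the Hyper-IL-6 arrays 6 genes were called, with Nr1h3 and Abca1 added, where 11.6% of all genes were.

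Srebf2, the main regulator of the pathway, read 11.15, 11.12 and 11.15 unstimulated and 11.11, 11.16 and 11.15 with GFP-PFC in parental cells and 11.16, 11.12 and 11.38 against 11.19, 11.13 and 11.39 in CIR-3, where the arrays numbered 5 and 6 are the high ones. Its CIR-1 arrays read 11.19, 11.03 and 11.19 against 11.18, 11.11 and 11.21. Its CIR-2 arrays read 11.12, 11.05 and 11.10 against 11.15, 11.16 and 11.15. Srebf1 read 10.13, 9.96 and 10.04 against 10.12, 10.00 and 10.02 in CIR-1, above or around the parental values, and 10.00, 9.84 and 9.91 against 9.92, 9.93 and 9.92 in CIR-2. The synthesis enzymes differed from parental cells by -0.16 to 0.18 in CIR-1, -0.14 to 0.20 in CIR-2 and -0.065 to 0.22 in CIR-3, with medians of -0.027, 0.010 and 0.038. Mvd, the mevalonate diphosphate decarboxylase, was the highest enzyme in each, at 0.18, 0.20 and 0.22 (adjusted p = 0.187, 0.155 and 0.0883). Mvd passed in 4, 3 and 7 of 22 alternatives in these lines, with adjusted p from 0.0129 to 0.384, 0.0148 to 0.382 and 0.00681 to 0.291. The replicate block called it in CIR-3 (0.0338), and leaving out the Hyper-IL-6 arrays as well in all 3 lines (0.0207, 0.0148 and 0.00681). Among single arrays left out, it passed in CIR-1 without the CIR-1 array 2 (0.0483) and in CIR-3 without the parental array 4 (0.0422). Array weights also called Ebp, lower in CIR-1 (-0.15, adjusted p = 0.0164) and CIR-2 (-0.14, 0.0159), and Dhcr7, lower in CIR-2 (-0.14, 0.0461). That fit called 1728 of all 19938 genes in CIR-1 and 1897 in CIR-2.

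**Figure D3:**
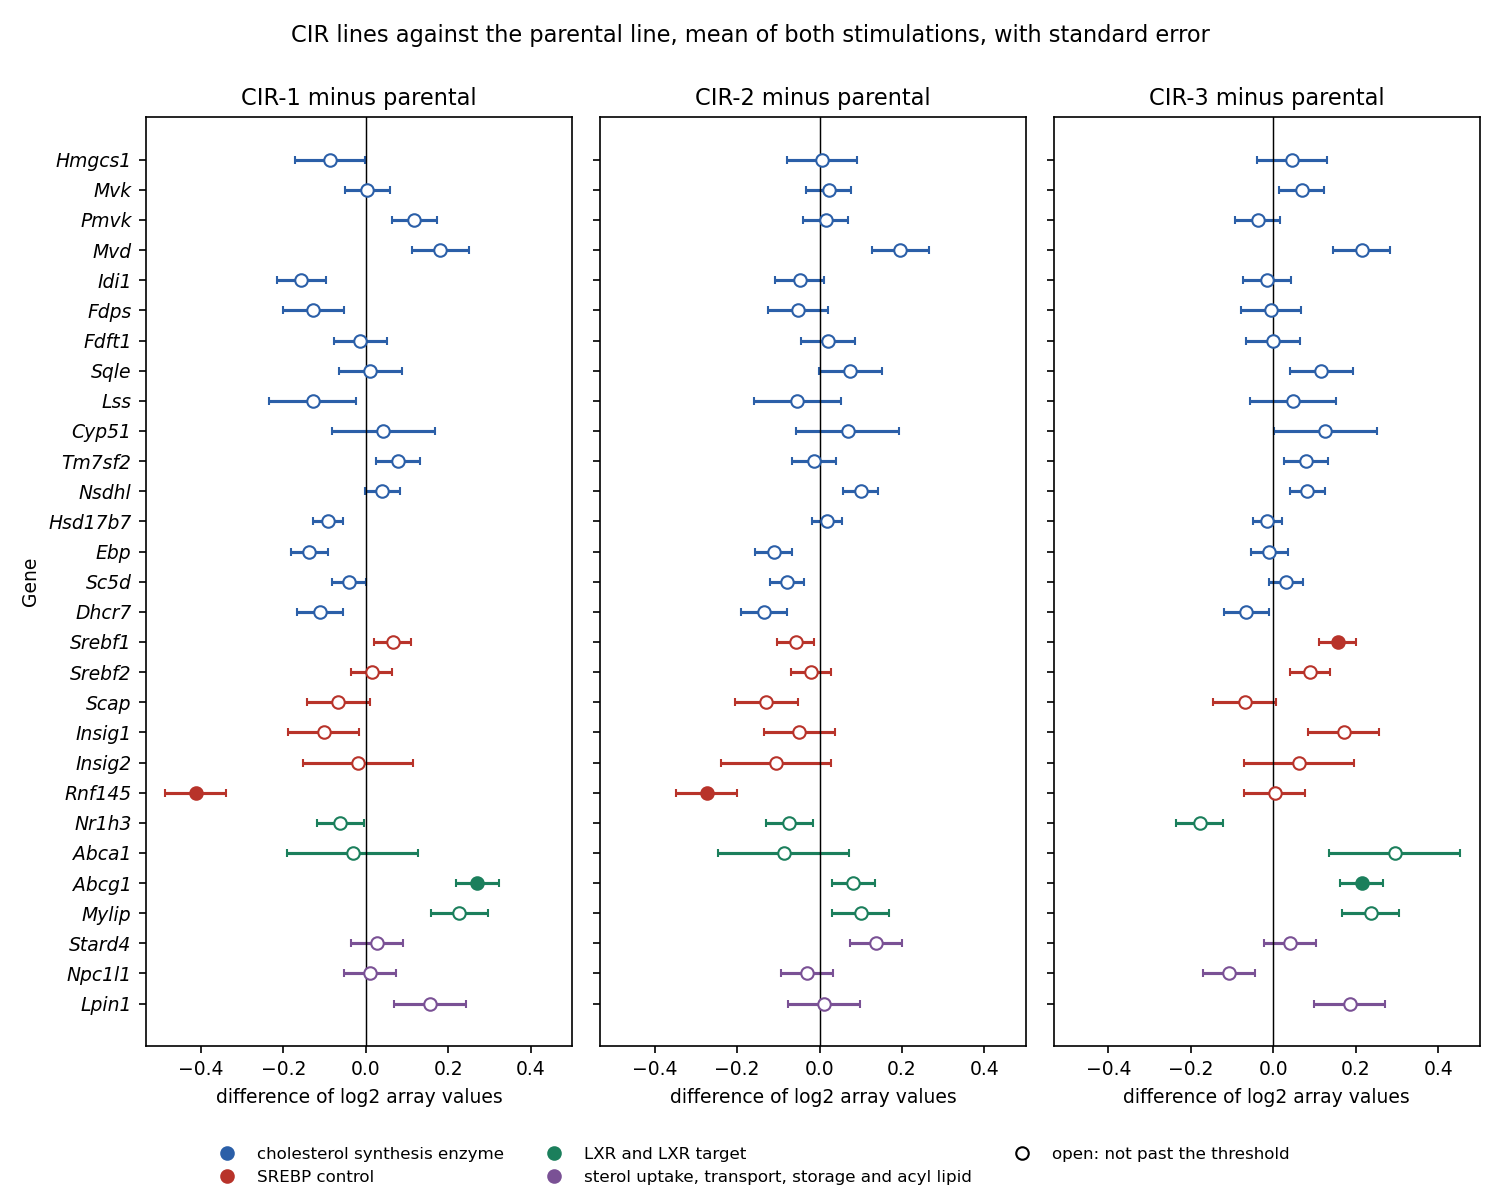
Difference of each CIR line from the parental line for the 29 genes (log2), mean of both stimulations, with standard errors; filled points passed an adjusted p of 0.05. Rnf145 is lower in CIR-1 (-0.41) and CIR-2 (-0.27) and at 0.004 in CIR-3, and Abcg1 is higher in CIR-1 (0.27) and CIR-3 (0.22).

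The 3 CIR lines were also compared with each other by a moderated F test, which called 2 of the 29 genes, Rnf145 (adjusted p = 0.0022) and Srebf1 (adjusted p = 0.0108), against 3.71% of all genes. CIR-3 exceeded CIR-1 by 0.42 and CIR-2 by 0.28 in Rnf145 (SE 0.074 each), and CIR-2 exceeded CIR-1 by 0.14. For Srebf1, CIR-3 exceeded CIR-2 by 0.21 and CIR-1 by 0.091 (SE 0.044 each). With the replicate block 4 of 29 genes passed, with Insig1 and Abcg1 added, against 7.33% of all genes, and without the Hyper-IL-6 arrays 7 passed with the block, against 10.6%. After quantile normalization Rnf145 alone passed and Srebf1 lost its call. Without the block Abcg1 had an adjusted p of 0.0963 and Insig1 of 0.148.

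Soat1 gave the largest line difference of the listed genes, in the exon-level table. Its product esterifies cholesterol for storage in lipid droplets. The mean of its 19 exon-level probe sets was 10.03, 10.04 and 10.11 in unstimulated and 9.93, 10.23 and 10.14 in GFP-PFC parental cells. In CIR-1 it was 8.99, 8.78 and 9.39 against 8.68, 8.93 and 9.54, and in CIR-2 8.95, 9.15 and 9.34 against 9.15, 9.28 and 9.29. CIR-3 had the lowest values, 8.49, 8.27 and 9.02 against 8.35, 8.42 and 9.20. Each CIR array lay below each parental array, Hyper-IL-6 included at 10.21, 10.34 and 10.37.

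Soat1 was 2.04-fold lower in CIR-1 (-1.03, SE 0.15, adjusted p = 6.53e-05), 1.85-fold lower in CIR-2 (-0.89, SE 0.15, adjusted p = 0.000507) and 2.74-fold lower in CIR-3 (-1.46, SE 0.15, adjusted p = 4.03e-07). All 19 probe sets were lower in every CIR line, by -0.07 to -1.55 in CIR-1, -0.28 to -1.28 in CIR-2 and -0.47 to -2.18 in CIR-3. At exon level 4.31%, 3.45% and 3.8% of 20416 genes were called in CIR-1, CIR-2 and CIR-3. All 16 alternatives run for each line, chosen after seeing the data, kept the call, with differences from -1.15 to -0.94 in CIR-1, -0.94 to -0.84 in CIR-2 and -1.59 to -1.38 in CIR-3. The arrays numbered 5 and 6 were the highest of their groups in all 3 CIR lines. The GFP-PFC difference of Soat1 was 0.046 (SE 0.11, adjusted p = 1). Nr1h2 and Acsl3, which activates fatty acids, were not called in any line, with CIR-3 values of 0.19 (SE 0.11, adjusted p = 0.428) and 0.13 (SE 0.10, adjusted p = 0.573).

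**Figure D4:**
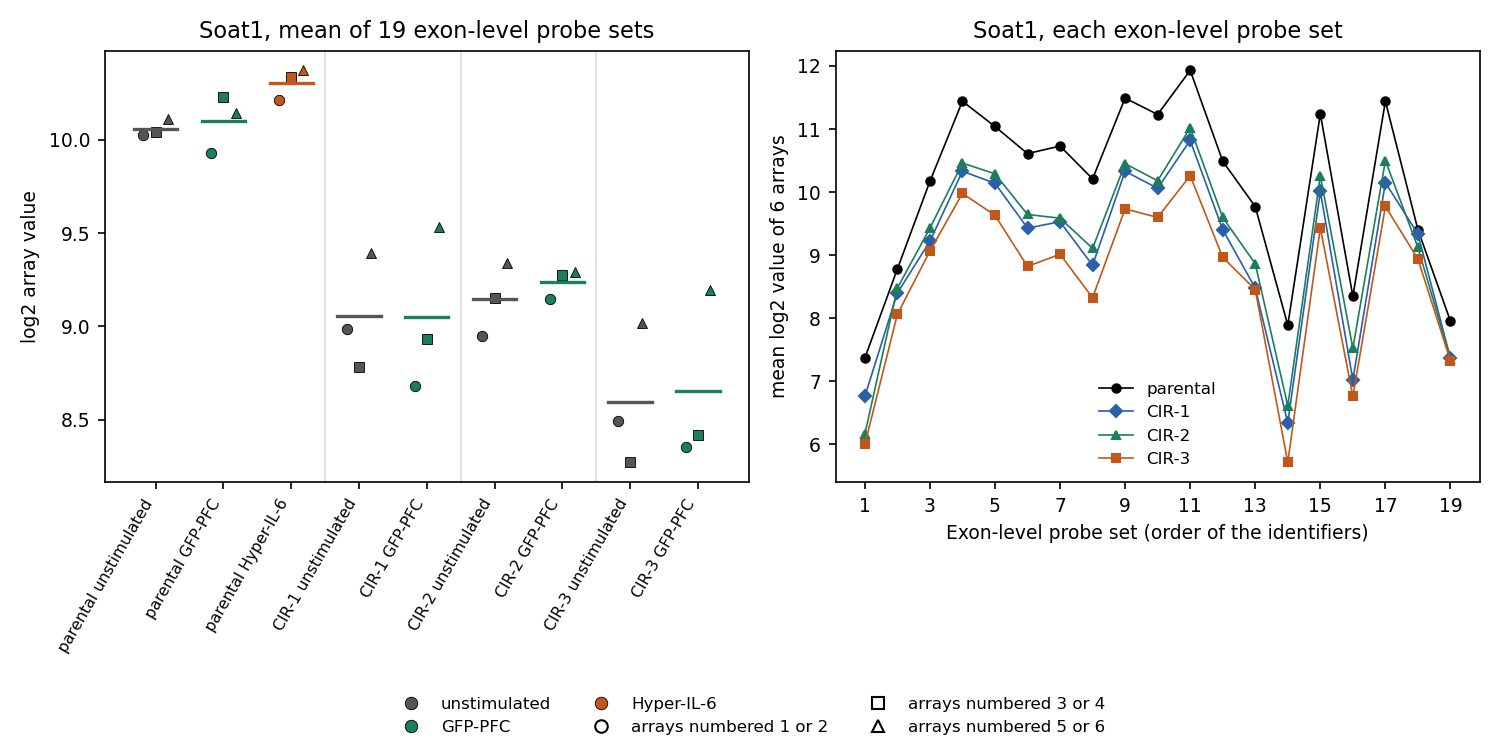
Soat1 in the exon-level table: left, the mean of its 19 probe sets on each array by group (log2, bar at the group mean); right, each probe set as the mean of the 6 unstimulated and GFP-PFC arrays of a line. Parental arrays lie between 9.93 and 10.37 and CIR-3 arrays between 8.27 and 9.20, and every probe set is highest in the parental line.

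Companion genes were called in few cases, against 4.92%, 3.8% and 4.2% of all genes in CIR-1, CIR-2 and CIR-3. Fasn, the fatty acid synthase, was lower in CIR-1 (-0.32, SE 0.078, adjusted p = 0.0149) and CIR-2 (-0.31, SE 0.078, adjusted p = 0.0213), 1 and 2 of 14 fatty acid synthesis genes being lower in these lines. The second in CIR-2 was the desaturase Fads1 (-0.22, SE 0.035, adjusted p = 0.000187). Scd2, another desaturase, was higher in CIR-2 (0.20, SE 0.046, adjusted p = 0.0144) and CIR-3 (0.27, SE 0.046, adjusted p = 0.000558). In CIR-3 the elongase Elovl6 was higher as well (0.25, SE 0.043, adjusted p = 0.000719), so that 2 of 14 were higher there. Lipa, the lysosomal lipase that frees cholesterol from its esters, was the 1 of 15 sterol transport and storage genes called in CIR-1 (-0.31, SE 0.047, adjusted p = 0.000123). Ube2g2, an ER-associated ubiquitin-conjugating enzyme, was the 1 of 10 SREBP processing genes called, higher in CIR-3 (0.19, SE 0.046, adjusted p = 0.015). None of the 4 further synthesis genes and 4 LXR partners was called in a line.

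The arrays numbered 1 and 2 differed from the others of their groups in part of the pathway. Over the 8 such arrays without Hyper-IL-6, Abca1 lay 0.32 above its group means on average, Insig2 0.29, Cyp51 0.27 and Hmgcs1 0.18, each above on 8 of 8 arrays. Fdps, Sqle, Fdft1 and Stard4 lay 0.14, 0.13, 0.12 and 0.11 above, also on all 8. Lss, the lanosterol synthase, lay below by -0.23, Scap by -0.16 and Insig1 by -0.15 on all 8. In all, 9 of the 29 genes were above on all 8 arrays and 6 below, or 51.7%, against 23.9% of all genes. Among the 16 enzymes 6 were above and 3 below.

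The shift can be seen array by array, with the unstimulated values given first and those with GFP-PFC second. Insig2 read 9.99, 9.29 and 9.32 on the parental unstimulated arrays and 9.92, 9.51 and 9.54 with GFP-PFC, 9.87, 9.41 and 9.35 against 10.01, 9.27 and 9.55 in CIR-1. It read 9.75, 9.25 and 9.34 against 9.80, 9.34 and 9.45 in CIR-2 and 9.81, 9.55 and 9.61 against 9.78, 9.56 and 9.64 in CIR-3. In each group the first value is the highest. With Hyper-IL-6 Insig2 read 9.70, 9.54 and 9.54. Hmgcs1 read 12.37, 12.08 and 12.06 against 12.36, 12.07 and 12.13 in CIR-1, 12.42, 12.17 and 12.20 against 12.44, 12.19 and 12.21 in CIR-2 and 12.56, 12.23 and 12.14 against 12.52, 12.25 and 12.16 in CIR-3, again with the first value highest throughout. Its Hyper-IL-6 arrays read 12.22, 12.06 and 12.15.

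Sqle and Abca1 followed in the same way in most groups. Sqle read 11.53, 11.12 and 11.27 against 11.42, 11.15 and 11.35 in CIR-1 and 11.56, 11.17 and 11.34 against 11.48, 11.29 and 11.41 in CIR-2. In CIR-3 it read 11.48, 11.29 and 11.48 against 11.49, 11.22 and 11.51, where the array numbered 6 is the highest with GFP-PFC, and with Hyper-IL-6 11.24, 11.20 and 11.24. Abca1 read 9.84, 9.15 and 9.04 against 9.59, 9.21 and 9.14 in CIR-1 and 9.61, 8.999 and 9.28 against 9.57, 8.93 and 9.26 in CIR-2, with the first array highest in all 4 groups. Rnf145 deviated on these 8 arrays by 0.042 on average, and its response to GFP-PFC was called in all 34 alternatives run, with differences from -0.52 to -0.41.

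**Figure D5:**
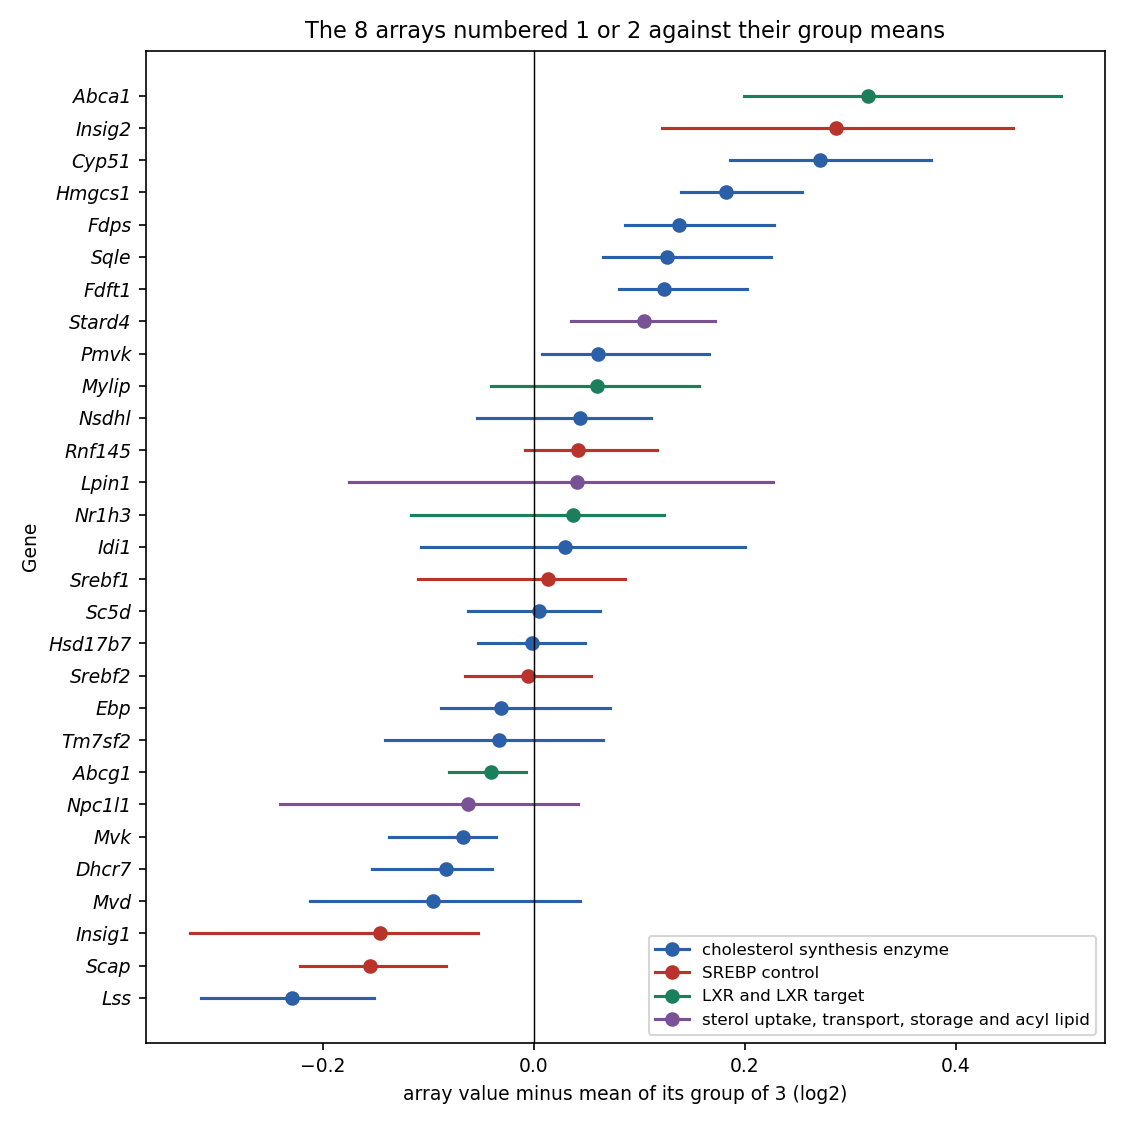
Deviation of the 8 arrays numbered 1 or 2 from the mean of their group of 3 (log2) for the 29 genes, as the mean (point) and the range (line), coloured by role. Abca1 (0.32), Insig2 (0.29) and Cyp51 (0.27) are highest, Lss (-0.23) is lowest, and Rnf145 lies near 0.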

How the data were processed

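RNA of 27 samples was measured on Affymetrix arrays. The authors deposited gene-level and exon-level log2 signals, made with Expression Console per the submitters' processing notes. Its version and algorithm are not given in the sources used here, and the log base was taken from the range of the values (2.97 to 14.86). Of 35556 gene-level probe sets, 21789 carried 1 symbol and gave 19938 genes. A model with a mean for each group was fitted with limma 3.58.1 in R 4.3.3 on the 27 arrays together, and p-values were adjusted by Benjamini-Hochberg over all genes (threshold 0.05). The same fit was run on means of exon-level probe sets. Array values were given for Rnf145, Insig1, Insig2, Srebf1, Srebf2, Hmgcs1, Sqle, Abca1, Abcg1, Mylip and any called gene, and at most 4 called companion genes per list and comparison. The genes and lists were chosen with earlier results of these data known. Array numbers were taken as rounds from the correlation of deviations from group means. It was above 0.1 in all 48 same-round pairs examined without Hyper-IL-6, 12 within a line and 36 of the same stimulation in other lines. Same-round pairs that differed in both line and stimulation were not examined. With a Hyper-IL-6 array it was above 0.1 in 0 of 24 pairs. Alternatives were the replicate block, compared arrays only, array weights, other scalings, filters and leaving out arrays. The scripts were tested on simulated data.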

Additional observations from a re-analysis of the deposited data

Results flagged for a closer look

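The differences among the 3 CIR lines were flagged for Rnf145 and Srebf1, because limma's moderated F test of the lines against each other passed after adjustment over all genes. It called 2 of the 29 genes and 3.71% of all genes. For Rnf145 the adjusted p was 0.0022, with CIR-1 at -0.41, CIR-2 at -0.27 and CIR-3 at 0.004 relative to parental cells. For Srebf1 the adjusted p was 0.0108, with CIR-3 above CIR-2 by 0.21 (SE 0.044). After quantile normalization Srebf1 lost this call and Rnf145 kept it.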

How the results depend on the processing

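Of 1059 alternative values over 51 results, 922 were classed as unchanged. For a difference this meant the same direction and the same side of the threshold. For a count of genes called it meant an equal or similar number, so that single genes could gain or lose a call. Of the differences, 0 turned their direction. They covered only genes called in at least 1 setting of a comparison, and Soat1 at exon level. That choice made a turn unlikely, and the other genes were not followed. Counts of the 29 genes called moved as follows, and the cause was not tested. With the replicate block 1 gene was called for GFP-PFC in CIR-2 and 1 in CIR-3, 1 for Hyper-IL-6 against GFP-PFC, 4 in CIR-1, 4 in CIR-3 and 4 among the CIR lines. In the same order, 1, 10, 252, 1655, 1650 and 1462 of all 19938 genes were called. With the block and without the Hyper-IL-6 arrays the counts were 1 and 1 for GFP-PFC in CIR-2 and CIR-3, 6, 5 and 6 for CIR-1, then CIR-2, then CIR-3, and 7 among the lines. Of all genes, 1, 19, 2121, 1746, 2307 and 2114 were called in this order. Compared arrays only gave 0 in CIR-2 and 0 in CIR-3, where 592 and 458 of all genes were called. Array weights gave 2 for GFP-PFC in parental cells, 1 in CIR-2, 5 for Hyper-IL-6 against GFP-PFC, 5, 6 and 7 in the lines and 4 among them. That fit called 1002, 1, 1929, 1728, 1897, 4248 and 2352 of all genes in this order. Without the arrays numbered 1 and 2, 1 was called for Hyper-IL-6, 8 in CIR-3 and 4 among the lines. Of all genes, 3673, 4172 and 1763 were called there. Quantile normalization gave 1 in CIR-3 and 1 (Rnf145, with Srebf1 lost) among the lines, where 917 and 816 of all genes were called. Equal array medians gave 1 for GFP-PFC over the 4 lines and 0 in CIR-2, where 42 and 558 of all genes were called. Leaving out 1 array gave 2 to 3 in CIR-1, 0 to 1 in CIR-2, 0 to 3 in CIR-3 and 2 to 3 among the lines. Where it left 0 in CIR-2, 557 to 781 of all genes were called. Where it left 0 or 1 in CIR-3, 663 to 765 were. In the main fit 981, 758 and 837 of all genes were called in CIR-1, CIR-2 and CIR-3, and 740 among the lines. It called 44 for GFP-PFC over the 4 lines and 0 in each line alone. For Hyper-IL-6 it called 155 against unstimulated cells and 102 against GFP-PFC. The 3 arrays per group limit the precision.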
